A study of Mus musculus with 6 samples.

Results

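The genes described here are the nuclear genes that load, trim and modify mitochondrial tRNAs and that drive translation on the mitochondrial ribosome. The set was given as a list of 38 symbols, with the genes that handle the glutamate tRNA first, and all 38 were found among the 32285 gene IDs of the count table. All 38 also passed the filter on low counts. Whole kidneys of 6 female mice of 100 weeks were profiled by RNA-seq. In all 6 mice a share of the mitochondrial DNA, here called the load, was mutated in TrnE, which encodes the mitochondrial tRNA for glutamate. The high-load group had 3 kidneys with loads of 75%, 75% and 80%, called high-load 1 to 3. The control group had 3 kidneys with loads of 10%, 5% and 15%, called control 1 to 3, so the controls are low-load animals and not animals free of the mutation. The sources used here name neither the mutated base nor the mouse strain. Nothing says how the animals were related, so p-values measure the spread between these samples.

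Mitochondrial DNA encodes its own tRNAs, but every enzyme that charges or modifies them is made from a nuclear gene and imported. In mammals the synthetase EARS2 loads glutamate onto the glutamate tRNA and, wrongly, onto the glutamine tRNA as well. The amidotransferase made of the QRSL1, GATB and GATC subunits then turns that glutamate into glutamine. MTO1 and GTPBP3 together add a taurine-containing group to the first anticodon base of several mitochondrial tRNAs, the glutamate and glutamine ones included, and TRMU adds sulfur to that same base in some of them. Proximal tubule cells are rich in mitochondria and depend on oxidative metabolism.

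The 2 tRNAs that share these enzymes are shown first, because the mutated gene is one of them. They are the reference genes of mm10 (GENCODE M21), both on the minus strand, read 5′ to 3′ with the anticodon in capitals. The glutamate tRNA gene mt-Te lies at chrM:14071-14139 and is 69 bases long, and the glutamine tRNA gene mt-Tq lies at chrM:3772-3842 and is 71 bases long.
mt-Te: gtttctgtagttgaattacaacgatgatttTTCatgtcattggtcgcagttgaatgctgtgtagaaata
mt-Tq: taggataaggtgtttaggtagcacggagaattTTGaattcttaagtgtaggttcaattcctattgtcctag
The anticodons occupy bases 31 to 33 of mt-Te and bases 33 to 35 of mt-Tq. Both begin with T, the base (U in the RNA) that MTO1, GTPBP3 and TRMU work on. Counts of the tRNAs themselves were not analysed here.

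Total counts per library were 18090197 to 18613697 in the high-load kidneys and 17449270 to 18865997 in the controls, and 15955 genes were tested. Of the listed markers of kidney cell types none was at 0 in any library. The summed CPM (counts relative to the TMM-scaled library size) of 14 proximal tubule markers was 4820, 23600 and 12900 in high-load 1, 2 and 3 and 21800 to 28800 in the controls, and all 14 had a fold change below 1. The summed CPM of 7 macrophage markers was 509 to 835 in the high-load kidneys and 280 to 383 in the controls. That of 7 tubule injury markers was 5690 to 11600 in the high-load kidneys and 2630 to 3890 in the controls. In such bulk samples, fewer cells of a type and less RNA per cell cannot be told apart. Summed markers of the thick ascending limb were below every control. They were at 4650 to 5600 CPM in the high-load kidneys and 6160 to 8790 CPM in the controls. Of these 5 markers, 4 had a fold change below 1 and 1 above 1, with a log2 fold change of 0.43. Summed stroma markers were above every control, at 512 to 783 CPM in high-load and 210 to 431 CPM in control kidneys. All 5 stroma markers had a fold change above 1. Of the 7 macrophage markers, 6 had a fold change above 1 and 1 below 1. High-load 1 stood apart from the other 5 libraries in its proximal tubule sum, and also in its podocyte (200 CPM, against 443 to 540 CPM in the controls), distal and collecting duct (1570 CPM, against 2810 to 3590 CPM) and lymphocyte markers (179 CPM, against 15.1 to 31.5 CPM). Values without high-load 1 are given below. By the median of the 9 distal and collecting duct markers, all 3 high-load kidneys were low. On the log2 scale, relative to the control mean, it was -1.22, -0.48 and -0.59 in high-load 1 to 3. In the controls it was -0.13 to 0.10. Of these 9 markers, 7 had a fold change below 1 and 2 above 1.

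No member passed the test over all genes, and those that stood out did so on the low side. edgeR's quasi-likelihood test called 0 of 38 at an adjusted p under 0.05, where the background was 0.0188% of all genes tested, and limma-voom called 0, where the background was 0%. At an unadjusted p under 0.05, 13 members (34.2%) were lower in high-load kidneys, against a background of 10.2% of genes, and 0 were higher, against 14%. DESeq2 called 3 members lower (7.89%, background 4.01%) and 0 higher (background 6.7%): Gatb, Nars2 and Gfm1. The 3 high-load values lay below all 3 control values for 17 members (44.7%, background 15.8%) and above them for 0 (background 17.1%). The median log2 fold change was -0.15 over the members and 0.01 over all genes tested, and 31 members had a fold change below 1 (81.6%, background 49.1%). The median stayed below 0 under each scaling tried. With library totals alone, where the median of all genes was 0.13, it was -0.05, 21 members were below a fold change of 1 and 31 below the median of all genes. On that scale the groups did not overlap, with high-load lower, for 11 members (28.9%), against 9.33% of all genes. The 6 that overlapped there were Yars2, Fars2, Pus1, Trmt10c, Gfm2 and Mtrf1l. At an unadjusted p under 0.05, 6 members were lower (background 6.31%), namely Gatb, Mto1, Rars2, Nars2, Gfm1 and Mtif3, while Iars2, Mars2, Yars2, Fars2, Hars2, Trmt10c and Tufm did not reach it, with log2 fold changes between -0.25 and -0.12.

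**Figure D1:**
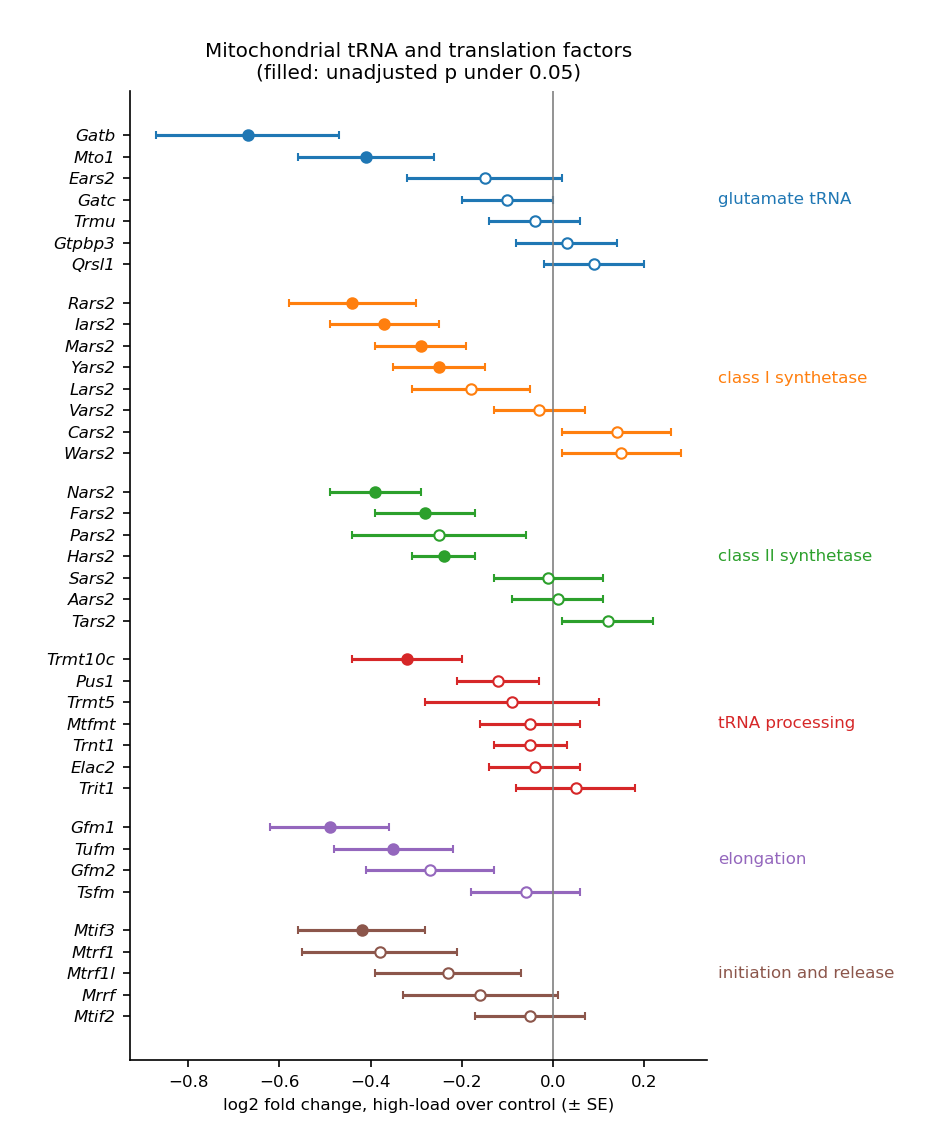
Log2 fold change of each of the 38 members, high-load over control, with its standard error from edgeR, grouped by role. Filled points have an unadjusted p under 0.05. All 13 filled points lie below 0, from -0.24 for Hars2 to -0.67 for Gatb, and none of the 38 passed the adjusted test.

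Of the 7 glutamate tRNA genes, 2 stood lower in all 3 high-load kidneys (background 15.8%) and 5 overlapped between groups. Ears2, the synthetase itself (chromosome 7, 122037213 to 122067263, minus strand, mm10), was at 8.79, 10.3 and 11.6 CPM in high-load 1 to 3, against 9.76, 11.4 and 12.8 CPM in controls 1 to 3. The ranges overlapped, and its log2 fold change was -0.15 (SE 0.17, edgeR adjusted p 0.625), or -0.04 without high-load 1 and -0.25 without high-load 3.

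Gatb, a subunit of the amidotransferase (in bacteria the one that binds the tRNA) on chromosome 3 (85574119 to 85655622, plus strand), was at 31.0, 55.8 and 46.8 CPM in high-load 1 to 3, against 70.8, 68.6 and 73.1 CPM in controls 1 to 3. Every high-load value lay below every control, and high-load 1 was the lowest. Gatb had the largest fold change of the members, with a mean of 44.5 ± 12.5 CPM in high-load and 70.8 ± 2.23 CPM in control kidneys (SD, n = 3 each). Its log2 fold change was -0.67 (SE 0.20, unadjusted p 0.0138, edgeR adjusted p 0.135) and was -0.46 without high-load 1. The other subunits of the same enzyme overlapped between groups. Gatc (chromosome 5, 115333239 to 115341178, minus strand) was at 26.2, 23.7 and 26.2 CPM in the high-load kidneys and 26.7, 29.6 and 25.3 CPM in the controls (log2 fold change -0.10, SE 0.10, or 0.02 with library totals alone). Qrsl1, the catalytic subunit (chromosome 10, 43874188 to 43901745, minus strand), was at 23.5, 20.7 and 26.6 CPM in the high-load kidneys and 22.6, 22.3 and 21.6 CPM in the controls (log2 fold change 0.09, SE 0.11).

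The modifying enzymes divided in a similar way. Mto1 (chromosome 9, 78448208 to 78475348, plus strand) was at 14.7, 21.4 and 20.7 CPM in the high-load kidneys, against 25, 26.3 and 24.1 CPM in the controls. The groups did not overlap, and the log2 fold change was -0.41 (SE 0.15, unadjusted p 0.0334, edgeR adjusted p 0.175), or -0.25 without high-load 1. Its partner Gtpbp3 (chromosome 8, 71488103 to 71499583, plus strand) was at 22.0, 22.4 and 20.9 CPM in the high-load kidneys and 19.6, 20.6 and 23.8 CPM in the controls. Its high-load values lay within the control range, with a log2 fold change of 0.03 (SE 0.11). Trmu, which adds the sulfur (chromosome 15, 85879312 to 85897394, plus strand), was at 21.2, 20.8 and 21 CPM in the high-load kidneys and 20.4, 24.1 and 20.3 CPM in the controls, with a log2 fold change of -0.04 (SE 0.10), or 0.08 with library totals alone. Over the 7 genes the median log2 fold change was -0.10, and it was 0.02 with library totals alone.

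**Figure D2:**
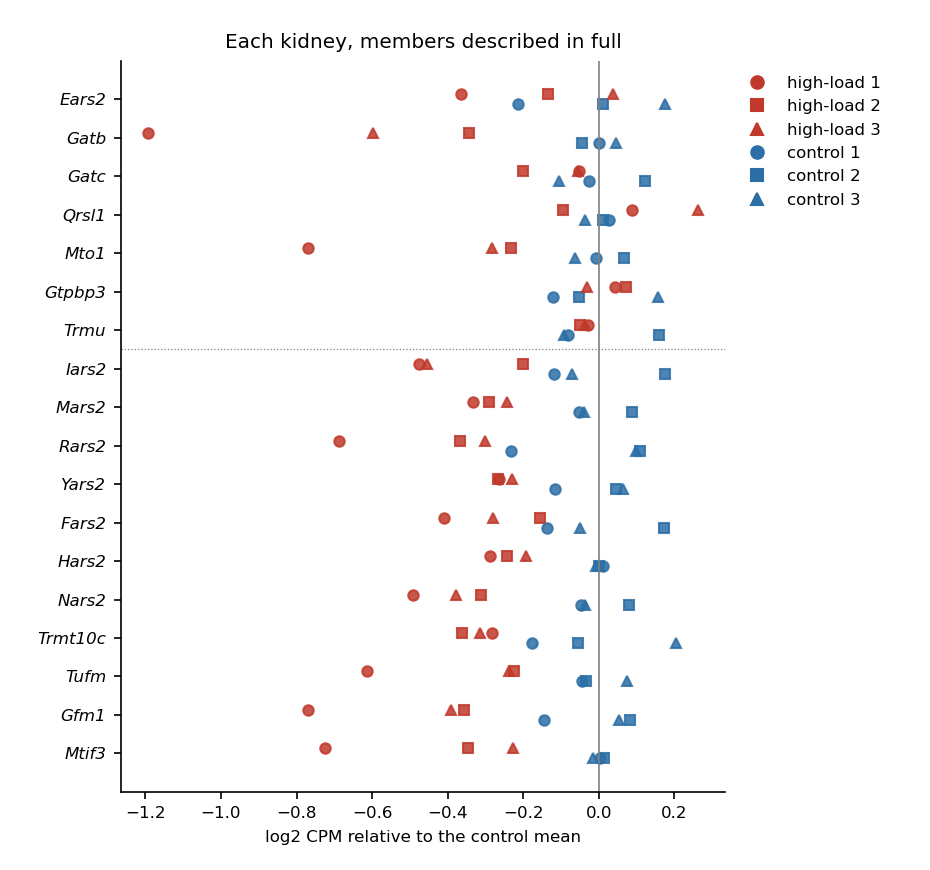
Log2 CPM of the 18 members described in full, relative to the control mean, with 1 point per kidney (red high-load, blue control, shape for the replicate number). The 7 glutamate tRNA genes are above the dotted line. The high-load points of Gatb and Mto1 lie left of all control points, with high-load 1 farthest left, while those of Gatc, Qrsl1, Gtpbp3 and Trmu overlap the controls.

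A ratio of 2 transcripts within a library does not depend on how libraries are scaled, so functional partners were compared in that way. The 7 pairs were chosen after the fold changes had been seen, and several set a lower member over a partner that differed little. Lower ratios in such pairs follow in part from that choice, which the adjustment over the 7 pairs does not correct. The share among other gene pairs was not computed. An exact two-sided permutation test of 3 against 3 cannot give a p below 0.1. The log2 count ratio of Gatb to Qrsl1 was 0.40, 1.43 and 0.82 in high-load 1 to 3, against 1.65, 1.62 and 1.76 in controls 1 to 3. All high-load ratios were the lower ones, the mean difference was -0.80, and the exact p of 0.1 (0.175 adjusted over the 7 pairs) is the smallest possible. The ratio of Gatb to Gatc differed by -0.61, but high-load 2 (1.24) lay just above control 2 (1.21), and the exact p was 0.2.

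The other pairs join partners in tRNA modification and pairs of translation factors. Mto1 to Gtpbp3 differed by -0.46, with -0.58, -0.07 and -0.02 in the high-load kidneys and 0.35, 0.35 and 0.02 in the controls. Control 3 lay close to the high-load values. Tufm to Tsfm differed by -0.29 and Mtif3 to Mtif2 by -0.37, each with an exact p of 0.1 (0.175 adjusted). The Mtif3 to Mtif2 ratio varied little within groups, at -1.12 ± 0.06 in high-load and -0.75 ± 0.06 in control kidneys (SD, n = 3 each). Gfm1 to Gfm2 differed by -0.22 (exact p 0.2), and Mtrf1 to Mtrf1l by -0.13 (exact p 0.5), where the groups overlapped.

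**Figure D3:**
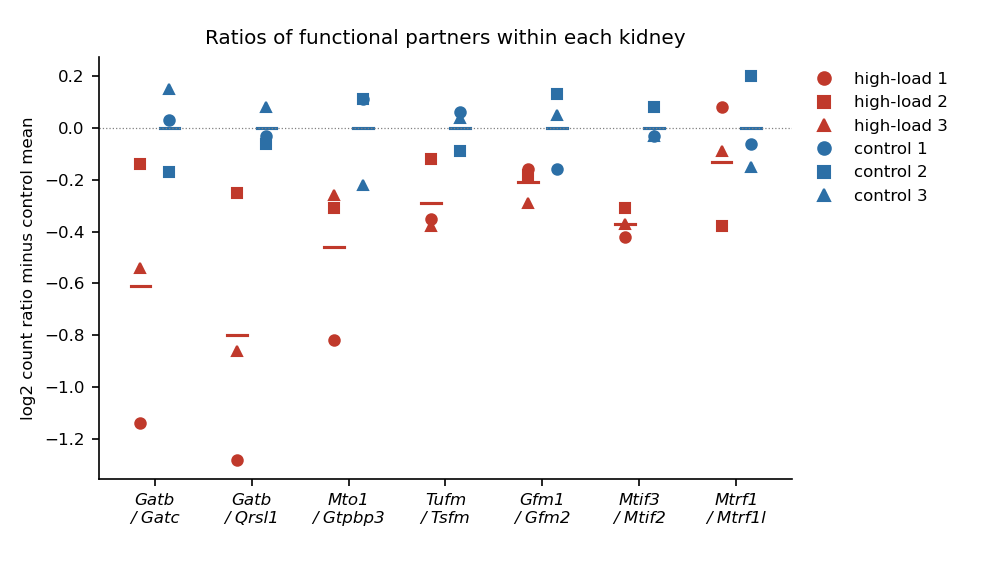
Log2 ratio of the counts of 2 partner genes in each kidney, minus the control mean of that pair, with high-load kidneys in red left of controls in blue and group means as bars. The high-load points lie below all control points for Gatb to Qrsl1, Mto1 to Gtpbp3, Tufm to Tsfm and Mtif3 to Mtif2, and overlap them in the other 3 pairs.

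Among the 8 class I synthetases, which share the Rossmann fold, 4 had an unadjusted p under 0.05, all lower (background 10.2%). The median log2 fold change of the 8 was -0.22. Rars2, for arginine, was at 22.0, 27.4 and 28.7 CPM in the high-load kidneys and 30.1, 38.2 and 37.9 CPM in the controls (log2 fold change -0.44, SE 0.14). Iars2, for isoleucine, was at 80.6, 97.4 and 81.7 CPM in the high-load kidneys and 103, 126 and 107 CPM in the controls (log2 fold change -0.37, SE 0.12). In both genes the groups were apart but close, with control 1 nearest to the high-load values. Mars2, for methionine, was at 13.4, 13.8 and 14.3 CPM in the high-load kidneys and 16.3, 17.9 and 16.4 CPM in the controls (log2 fold change -0.29, SE 0.10). Yars2, for tyrosine, was at 15.6, 15.6 and 16 CPM in the high-load kidneys and 17.4, 19.4 and 19.7 CPM in the controls (log2 fold change -0.25, SE 0.10). With TMM scaling, high-load kidneys hardly differed among themselves in these 2 genes. The TMM factor of high-load 1 was 1.14, against 0.944 to 0.997 in the other libraries. With library totals alone, Mars2 was at 15.2, 13.8 and 14.2 CPM and Yars2 at 17.8, 15.6 and 15.9 CPM in high-load 1 to 3. High-load 1 then lay above control 1 in Yars2. On that scale the log2 fold changes were -0.17 for Mars2 and -0.14 for Yars2. Adjusted p from edgeR's test was 0.145 for Rars2, 0.149 for Iars2, 0.167 for Mars2 and 0.190 for Yars2. Lars2 (leucine) and Vars2 (valine) had log2 fold changes of -0.18 and -0.03, and Cars2 (cysteine) and Wars2 (tryptophan) 0.14 and 0.15, each with overlapping groups.

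The 7 class II synthetases gave a median of -0.24, with 3 lower at an unadjusted p under 0.05 (background 10.2%). Nars2, for asparagine, was at 14, 15.9 and 15.1 CPM in the high-load kidneys, against 19.0, 20.8 and 19.2 CPM in the controls. The groups were well apart, with means of 15.0 ± 0.940 CPM in high-load and 19.7 ± 0.973 CPM in control kidneys (SD, n = 3 each). Its log2 fold change of -0.39 (SE 0.10) had an unadjusted p of 0.00749, the smallest among the members, and an edgeR adjusted p of 0.118. Hars2, for histidine, was at 40.3, 41.6 and 43.1 CPM in the high-load kidneys and 49.5, 49.2 and 48.9 CPM in the controls (log2 fold change -0.24, SE 0.07, edgeR adjusted p 0.130). That gap was small but exceeded the spread within either group, and the log2 fold change was -0.12 with library totals alone (edgeR adjusted p 0.409). Fars2, for phenylalanine, was at 32.3, 38.5 and 35.3 CPM in the high-load kidneys and 38.9, 48.2 and 41.4 CPM in the controls (log2 fold change -0.28, SE 0.11, edgeR adjusted p 0.198), where high-load 2 and control 1 nearly met. The other members of the class overlapped between groups, with log2 fold changes of -0.25 for Pars2 (proline), -0.01 for Sars2 (serine), 0.01 for Aars2 (alanine) and 0.12 for Tars2 (threonine).

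Each mitochondrial synthetase was set beside the cytosolic enzyme for the same amino acid, again as a ratio within each library. This pairing was chosen after the data had been seen, and 17 pairs could be formed, with Eprs, which charges both glutamate and proline, and Fars2, whose cytosolic counterpart has 2 subunits, each used in 2 pairs. The mean log2 ratio of mitochondrial to cytosolic counts was lower in high-load kidneys in 17 of 17 pairs, by -0.05 to -0.76 with a median of -0.44. In 12 pairs the exact permutation p was 0.1, the smallest possible, or 0.142 adjusted over the 17 pairs. Such a p means only that the groups did not overlap, and the share among other gene pairs was not computed. Of single genes, 15.8% were lower and 17.1% higher without overlap. The pairs share their libraries and are not independent of each other. In 10 pairs the mitochondrial gene had a fold change below 1 and the cytosolic gene one above 1. Unlike the ratios, this count depends on the scaling, here TMM, and its share among other gene pairs was not computed. It includes Sars2 and Vars2, with log2 fold changes of only -0.01 and -0.03.

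Nars2 to Nars shows the pattern clearly. Its log2 count ratio was -3.67, -3.36 and -3.50 in high-load 1 to 3, against -2.90, -3.01 and -2.97 in controls 1 to 3, a difference of -0.55. Vars2 to Vars had the largest difference, -0.76, with -2.56, -1.52 and -1.67 in the high-load kidneys and -1.44, -1.02 and -1.01 in the controls. There the cytosolic gene was the one that differed more, with a log2 fold change of 0.80 (SE 0.28, edgeR adjusted p 0.159). Vars was at 151, 69.5 and 87.2 CPM in the high-load kidneys and 64.5, 57.6 and 54.5 CPM in the controls, while Vars2 had a log2 fold change of -0.03. Wars, for tryptophan, was at 70.2, 63.4 and 68.2 CPM in the high-load kidneys and 41.3, 47.8 and 44.0 CPM in the controls (edgeR adjusted p 0.0910). Cars2 to Cars and Tars2 to Tars differed least, by -0.05 and -0.06, and their groups overlapped. Over the 20 cytosolic synthetases the median log2 fold change was 0.18, with 5 higher (25%, against 14% of all genes) and 0 lower at an unadjusted p under 0.05 and 0 called by edgeR over all genes. DESeq2 called 3 of them higher (15%, against 6.7% of all genes) and 0 lower. The 20 include Gars and Kars, which are counted again among the other pathway genes below, and Gars is 1 of the 5 higher.

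**Figure D4:**
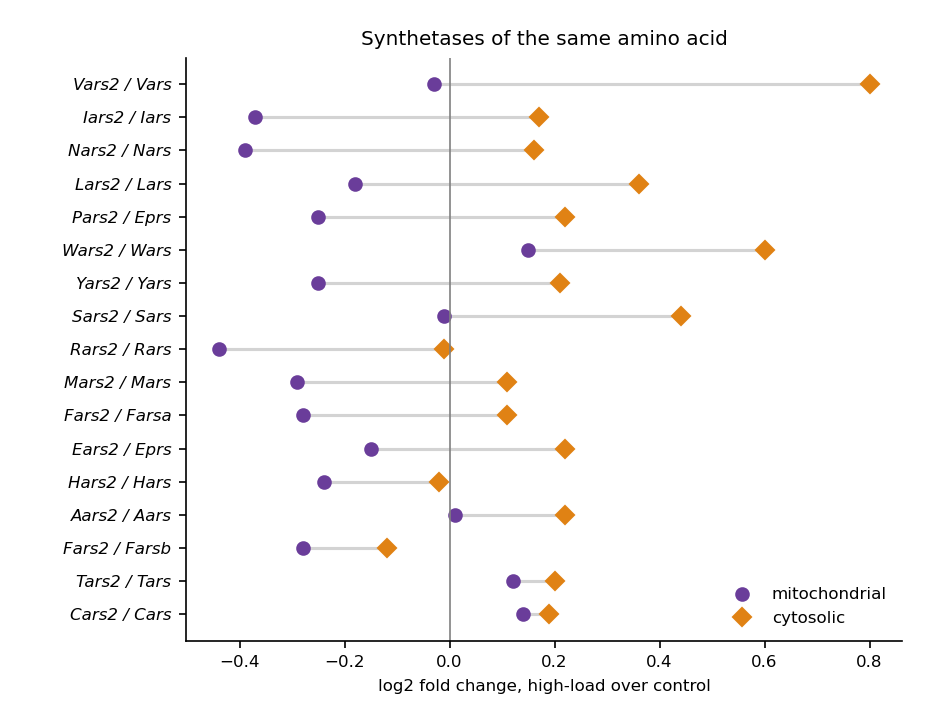
Log2 fold change, high-load over control, of each mitochondrial synthetase (circle) and of the cytosolic enzyme for the same amino acid (diamond), ordered by the difference of their within-library ratio. The diamond lies right of the circle in all 17 pairs, from nearly touching for Cars2 and Cars to far apart for Vars2 and Vars.

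Of the 7 genes that cut, finish or modify mitochondrial tRNAs more generally, 1 was lower at an unadjusted p under 0.05 (background 10.2%). Trmt10c, a subunit of the mitochondrial RNase P that trims the 5′ end of tRNAs and a methyltransferase subunit, was at 18.8, 17.8 and 18.4 CPM in the high-load kidneys and 20.2, 22.0 and 26.3 CPM in the controls. The groups did not overlap, though control 3 supplied much of the gap (log2 fold change -0.32, SE 0.12, edgeR adjusted p 0.179). The log2 fold change was -0.21 without control 3, and it was -0.20 with library totals alone, where high-load 1 lay above controls 1 and 2. Pus1, a pseudouridine synthase, was also lower in all 3 high-load kidneys, by a narrow margin (26.8 to 31.0 CPM, against 31.3 to 32.8 CPM in controls). The other 5 overlapped and had log2 fold changes between -0.09 and 0.05. They are Mtfmt, which formylates the initiator methionine tRNA, Trit1, which adds an isopentenyl group beside the anticodon, Trmt5, which methylates a guanine there, Elac2, which cuts the 3′ end, and Trnt1, which adds the CCA tail.

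The 4 genes grouped under elongation, with the recycling factor gene Gfm2 among them, had a median log2 fold change of -0.31. All 4 were negative, where 49.1% of all genes had a fold change below 1. Gfm1, the factor that moves the ribosome along the mRNA, was at 53.5, 71.2 and 69.6 CPM in the high-load kidneys, against 82.4, 96.6 and 94.5 CPM in the controls. The groups were apart, with high-load 1 the lowest, and the log2 fold change was -0.49 (SE 0.13, unadjusted p 0.00793, edgeR adjusted p 0.120). It was -0.37 without high-load 1. Tufm, which brings charged tRNAs to the ribosome, was at 115, 151 and 149 CPM in the high-load kidneys and 171, 172 and 186 CPM in the controls. With TMM scaling, high-load 2 and 3 lay close together below the controls, and high-load 1 much lower. The log2 fold change was -0.35 (SE 0.13, edgeR adjusted p 0.175), or -0.23 without high-load 1. With library totals alone Tufm was at 131, 150 and 148 CPM in high-load 1 to 3. Tsfm, which recharges Tufm with GTP, overlapped between groups (log2 fold change -0.06, SE 0.12). Gfm2, which works with Mrrf to take ribosomes apart, had groups that did not overlap (log2 fold change -0.27, SE 0.14, unadjusted p 0.0954).

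The 5 other genes of initiation, release and recycling were also all on the negative side, and their median was -0.23. Mtif3, an initiation factor, was at 13.4, 17.4 and 18.9 CPM in the high-load kidneys, against 22.1, 22.3 and 21.8 CPM in the controls. The controls were nearly identical and all high-load values lay below them (log2 fold change -0.42, SE 0.14, edgeR adjusted p 0.156, or -0.28 without high-load 1). The release factor genes Mtrf1 and Mtrf1l were lower in all 3 high-load kidneys without reaching an unadjusted p under 0.05 (log2 fold changes -0.38 and -0.23). The initiation factor gene Mtif2 (-0.05) and the recycling factor gene Mrrf (-0.16) overlapped between groups.

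Several of these genes share exon sequence with a neighbour on the opposite strand, 16 of the 38 in all. The overlap covers 29.4% of the exon length of Mtif3 (with Gtf3a), 24.2% of that of Iars2 (chiefly with Rab3gap2), 30.1% of that of Pus1 and 10.7% of that of Fars2. The sources used here do not say whether reads were counted by strand, so these counts may include reads of the neighbours. Gatb, Mars2, Rars2, Yars2, Trmt10c and Tufm have no such overlap, and for Gfm1 it covers 1.43%.

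Per unit of transcript length, Tufm stood far above the rest. TPM (counts scaled to the union of each gene's annotated exons and to library size) ran from 176 ± 7.80 for Tufm to 3.33 ± 0.296 for Mars2 in high-load kidneys and from 216 ± 13.7 to 3.89 ± 0.172 in controls (SD, n = 3 each), a 55.5-fold span of levels in the controls. The other 36 members had control means between 5 and 60 TPM. Gatb ranked the third in the controls, at 27.7 ± 5.59 TPM in high-load and 43.0 ± 2.09 TPM in control kidneys, and took rank 6 in the high-load group. Gatc came next, at 38.6 ± 5.90 TPM in high-load and 39.4 ± 2.57 TPM in control kidneys, while Qrsl1 was at 16.6 ± 2.55 and 14.9 ± 0.200 TPM in those same groups. Ears2 was near the bottom, at 5.37 ± 0.253 TPM in high-load and 5.74 ± 0.841 TPM in control kidneys, and ranked 37 in both groups. Of the 37 neighbouring pairs in the control order, 24 differed by less than the larger of their SDs, among them Elac2, Trmt10c, Fars2 and Gfm2 in turn. Long exon models, as for Mars2 and Gfm2, lower a TPM value.

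**Figure D5:**
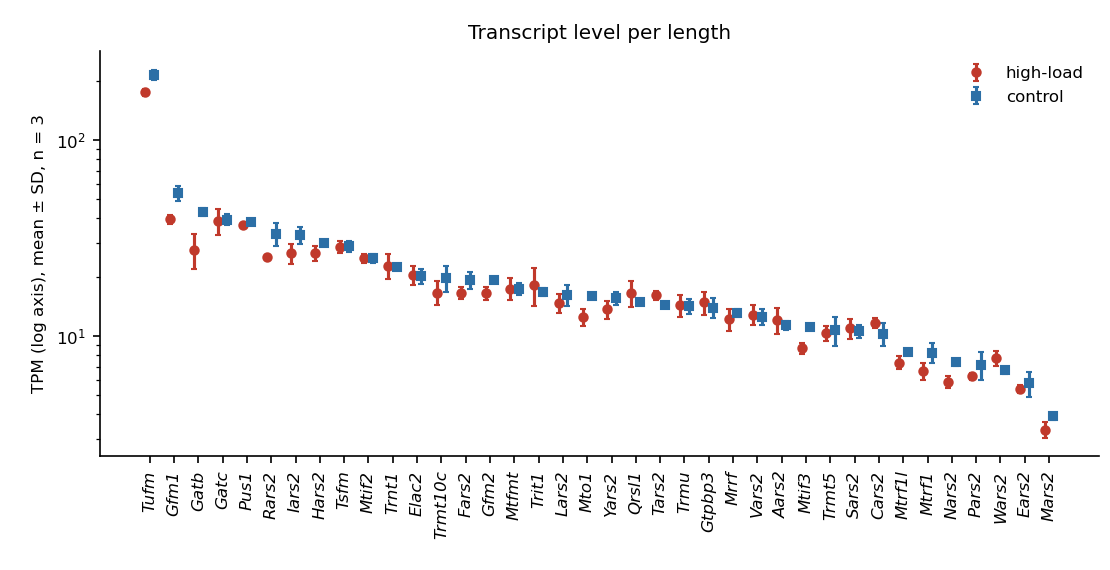
Mean TPM with its SD (n = 3 per group) for the 38 members on a log axis, ordered by the control mean, high-load in red left of control in blue. Tufm lies alone at the top, and Gatb, Gfm1, Mto1 and Mtif3 are among the genes whose error bars stand apart between groups.

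High-load 1 was often the lowest library, but not the only low one. It had the lowest value of the 6 for 21 members and for 11 of the 13 with an unadjusted p under 0.05. With library totals alone it was the lowest for 9 members and for 6 of those 13. Without it, 9 members were lower at an unadjusted p under 0.05 (background 8.09%) and 0 were higher (background 10.6%). The median log2 fold change without high-load 1 was -0.08. In high-load 2, 23 members (60.5%) were below all 3 controls, against 29.1% of all genes tested, and 2 were above all 3 (background 29.9%). In high-load 1 they were 24 (63.2%, background 37.3%) and in high-load 3 20 (52.6%, background 31.6%). With library totals alone they were 16 (42.1%, background 22%), 18 (47.4%, background 21.3%) and 16 (42.1%, background 26.9%) in high-load 1, 2 and 3. The summed proximal tubule markers of high-load 2 lay within the control range, but the median of those markers on the log2 scale, relative to the control mean, was -0.30 there and between -0.15 and 0.23 in the controls. The part that the levels of these and the other cell type markers play in the members' values was not tested. The count of 13 was 4 without control 2 and 5 without control 3, with backgrounds of 6.25% and 6.88%. Gatb, Hars2, Nars2 and Gfm1 were the 4 left without control 2, and Iars2 joined them without control 3.

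Other genes of the same pathway, 34 of them listed and 33 found and tested, included genes on both sides. Their median log2 fold change was -0.11. At an unadjusted p under 0.05, 9 were lower (27.3%, background 10.2%) and 2 higher (6.06%, background 14%). Over all genes edgeR called 0, where DESeq2 called 1 lower (3.03%, background 4.01%) and 1 higher (3.03%, background 6.7%). Among those with the smallest p were Gars, Nsun4 and Trmt2b (edgeR adjusted p 0.102, 0.131 and 0.152). Gars, which charges glycine tRNA in both cytosol and mitochondria, was at 96.9, 89.1 and 98.4 CPM in the high-load kidneys and 70.0, 72.1 and 77.9 CPM in the controls. All 3 high-load values of Gars lay above the controls. Nsun4, a methyltransferase of mitochondrial rRNA, was at 29.1, 29.1 and 28.6 CPM in the high-load kidneys and 34.6, 34.1 and 33.9 CPM in the controls, and Trmt2b, a tRNA methyltransferase, at 36.6 to 42.4 CPM in the high-load kidneys and 47.2 to 50.4 CPM in the controls. Both stood below the controls in all 3 high-load kidneys. Prorp, the nuclease subunit that works with Trmt10c, was picked after its values were seen, and stood at 13.5, 18.4 and 16.3 CPM in the high-load kidneys and 21.2, 19.9 and 21.2 CPM in the controls (log2 fold change -0.37, SE 0.13, edgeR adjusted p 0.165). The median was -0.09 over 78 mitochondrial ribosomal protein genes, with 5 lower (6.41%) and 2 higher (2.56%) at an unadjusted p under 0.05, both shares being below those of all genes (10.2% and 14%). The median was 1.25 over a list of 12 genes, made up of Atf4, which encodes a stress transcription factor, and targets of ATF4. At an unadjusted p under 0.05, 10 of them were higher (83.3%, background 14%) and 0 lower (background 10.2%).

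Promoters were searched for 4 short motifs, since genes of this kind are known to carry sites for NRF1, ETS factors and YY1, and ATF4 sites mark stress response genes. RefSeq windows (GRCm38.p6) from 250 bases before to 50 after a gene's start were found for 33 members, in 35 windows. No window was found for Gatb, Hars2, Pars2, Trnt1 and Mtif3. On either strand, CCGGAAG (ETS) was found in 10 of the 35 windows (28.6%) and in 8.86% of all 32851 windows, and AAGATGGCG (YY1) in 6 (17.1%) and 1.4%. The YY1 windows belong to 5 genes, since 2 overlapping windows of Aars2 both hold the match. GCGC, any base, then TGCGC (NRF1) was found in 3 windows (8.57%) and in 4.6% of all, and TGATGNAAN (ATF4) in 0 and in 3.95% of all. Matches are of letters only and show no binding. The member windows and all windows were not matched for base composition.

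Among members with an unadjusted p under 0.05, 5 of 10 with a window held the ETS letters, and among the others 5 of 23. The latter were Cars2, Mtif2, Sars2, Trmu and Trmt5, with log2 fold changes of 0.14, -0.05, -0.01, -0.04 and -0.09. Gatb, Hars2 and Mtif3, also at an unadjusted p under 0.05, had no window. A link between the letters and the fold changes was not tested. Those of the first group are shown here with the match in capitals, which reads as its reverse complement in Rars2 and Trmt10c. The stretches run from 40 bases before the start to 20 after, on the gene's own strand. They lie at chr3:67430075-67430134 (Gfm1), chr7:126487315-126487374 (Tufm), chr4:34614917-34614976 (Rars2), chr1:55237137-55237196 (Mars2) and, on the minus strand, chr16:56037767-56037826 (Trmt10c).
Gfm1: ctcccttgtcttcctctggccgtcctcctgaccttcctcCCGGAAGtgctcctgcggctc
Tufm: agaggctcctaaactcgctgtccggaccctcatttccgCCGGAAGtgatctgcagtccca
Rars2: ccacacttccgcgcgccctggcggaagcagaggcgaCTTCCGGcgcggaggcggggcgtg
Mars2: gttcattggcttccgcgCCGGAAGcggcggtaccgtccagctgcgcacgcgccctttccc
Trmt10c: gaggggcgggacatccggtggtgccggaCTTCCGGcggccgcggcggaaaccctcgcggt
In Gfm1, Tufm and Rars2 the match spans the annotated start, beginning 1, 2 and 4 bases before it.

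The YY1 letters sat just after the start in all 5 genes that hold them, shown from 30 bases before to 30 after the start, all on the plus strand. They lie at chr9:78448180-78448239 (Mto1), chr16:16302935-16302994 (Yars2), chr3:99141060-99141119 (Wars2), chr4:123016563-123016622 (Trit1) and chr17:45506802-45506861 (Aars2).
Mto1: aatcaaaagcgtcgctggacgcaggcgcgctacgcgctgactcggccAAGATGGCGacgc
Yars2: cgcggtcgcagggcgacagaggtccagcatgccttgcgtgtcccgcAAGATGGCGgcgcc
Wars2: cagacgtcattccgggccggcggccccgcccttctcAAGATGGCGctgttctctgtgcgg
Trit1: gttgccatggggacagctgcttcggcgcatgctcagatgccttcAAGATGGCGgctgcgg
Aars2: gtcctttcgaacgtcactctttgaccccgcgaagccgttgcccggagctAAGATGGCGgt
The match begins at base 18, 17, 7, 15 and 20 in the order shown, with the start as base 1. Mto1 and, with TMM scaling, Yars2 were lower in all 3 high-load kidneys, while Wars2, Trit1 and Aars2 overlapped between groups, with log2 fold changes of 0.15, 0.05 and 0.01.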

How the data were processed

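The authors deposited raw read counts per Ensembl gene, 1 column for each of 6 kidneys. Per the submitters' processing notes, featureCounts 2.0.1, HISAT2 2.2.1, fastp 0.23.2, SAMtools 1.11 and edgeR were used with the build mm10. The sources used here give no annotation, strand setting or rule for reads with several matches. Libraries came from an Illumina TruSeq kit with paired reads of 150 bp, per the labels' protocols. Of 32285 gene IDs, 32235 matched GENCODE M21, which gave symbols, positions and exon lengths.

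The test was edgeR 4.0.16 in R 4.3.3: genes were kept by filterByExpr (minimum count 10), scaled by TMM and fitted on group with robust quasi-likelihood, and the two-sided p was Benjamini-Hochberg adjusted over 15955 genes (threshold 0.05). Each SE follows from the log2 fold change and F. Biological variation between kidneys had a coefficient of 23%. DESeq2 1.42.0 and limma-voom (limma 3.58.1) were alternatives, beside other scaling, other filters, a non-robust fit, leaving out each library, and the replicate number as a block. Replicates within a group differed by far more than counting noise, and none was treated as a repeat.

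The members and lists were chosen with earlier results of these data known. Described in full were the 7 glutamate tRNA genes and, in each other role, members with an unadjusted p under 0.05. Of the other pathway genes, the 4 with the smallest p were to be named, and 1 of them is not reported here. Of that list Mtrfr was not matched to a row and is not analysed here, and Prorp is listed under an older symbol.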

Additional observations from a re-analysis of the deposited data

How the results depend on the processing

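The count of called members stayed at 0 under every alternative except DESeq2, which called 3 (Gatb, log2 fold change -0.679 and adjusted p 0.0351; Nars2, -0.40 and 0.0390; Gfm1, -0.503 and 0.0257). Gatb, Gfm1 and Nars2 had an unadjusted p under 0.05 and were lower in all 16 settings. The count of lower members at an unadjusted p under 0.05 was 13 (background 10.2%) and 6 with library totals alone (background 6.31%). With 1 library left out it ran from 4 (without control 2, background 6.25%) to 11 (without high-load 2, background 13.2%). The count of higher members was 0 throughout, except 1 (Tars2) with library totals alone (background 18.2%). The members' median of -0.154 was -0.046 with library totals alone and -0.236 to -0.077 with 1 library left out. The median of the glutamate tRNA genes was -0.10, with 0.023 for library totals alone and -0.125 to -0.037 with 1 library left out. Directions reversed for genes near no difference: Gatc (0.023) and Trmu (0.082) with library totals alone, and with 1 library left out Qrsl1 (lowest -0.002, highest 0.178), Gtpbp3 (-0.033 to 0.11) and Trmu (-0.086 to 0.045). With library totals alone the shift follows from its construction, as the median of all genes moved to 0.13; the other causes were not tested.

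With the replicate number as a block, 10 members were lower at an unadjusted p under 0.05 (background 10.1%), 0 were called and the median was -0.165. Same-numbered kidneys did not deviate together (correlations 0.12, -0.19 and 0.05 for numbers 1, 2 and 3). Whether the numbers pair the samples is not known, as so few correlations cannot decide it.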
